A study of Camellia sinensis with 15 samples.

Results

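Of the 59128 genes in the deposited expression tables of tea roots, 4 transcription factor genes are described here, namely the MYB gene CSS0032956 and the AP2 genes CSS0034513, CSS0009309 and CSS0043971. They were chosen because the study names them in its text as lower in As-treated roots, beside the MYB gene CSS0030465, and the family names are the study's. The study made that choice on the same libraries, so the difference between As-treated roots and the control (CK) is given here as a description of the 4 genes. Every comparison with CK uses the same 3 CK libraries, and the values of the Cd groups against CK are therefore not independent of the choice either.

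The roots came from wild-type seedlings of the tea cultivar 'Fuding Dabaicha', 2-year-old plants grown in pots. The groups were Cd2 and Cd1, poured with 400 mL of a solution with 120 mg/kg Cd (II), As2 and As1, poured with 400 mL of a solution with 120 mg/kg As, given as As (V) in the methods, and the untreated CK. The numbers 2 and 1 stand for roots taken after 15 d and after 10 d in the methods, whereas the sample labels give day 15 for all libraries, CK included. The methods give neither a day nor a poured volume for CK, which is a single group. In the comparisons with CK, the metal can therefore not be told apart from the pouring or from a difference in the day of sampling. Each group is labelled with 3 libraries, but the table of the third Cd1 library holds the same values as Cd2 replicate 1 and carries that name in its header, so 14 libraries were used, 2 of Cd1 and 3 of each other group. No source at hand says whether a library is 1 plant or a pool, and the p-values measure the spread between these libraries only.

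MYB and AP2/ERF proteins belong to the large families of plant transcription factors. MYB proteins bind DNA through repeats of the MYB domain and regulate, among others, phenylpropanoid metabolism, in Arabidopsis the fate of root epidermal cells, and responses to drought and other stresses. The AP2/ERF family shares the AP2 DNA-binding domain and includes the ethylene response factors and the DREB proteins, which act in the responses to ethylene, cold, drought and wounding. Members of both families can activate or repress their targets, and the role of the 4 tea genes themselves is not known from these data. The identifiers of 0 of the 4 genes were found in the deposited gene models or in the RefSeq gene table of tea, so their positions and sequences are not given here. The files name no genes, and root marker genes were not checked.

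The level of a gene is given as FPKM, a fragment count scaled to the gene's length and the library's depth. The deposited values are multiples of a step for each gene and library, from which whole fragments were recovered, between 10483112 and 13846717 per library. limma-trend on log2(FPKM + 1) was used to test 33109 genes, those that reached an FPKM of 1 in 3 or more libraries. A differentially expressed gene (DEG) had an adjusted p (Benjamini-Hochberg) below 0.05 and a log2 fold change beyond 1 in either direction. All 4 genes were tested. Of these, CSS0043971 reached an FPKM of 1 in 5 libraries, the 3 CK libraries among them, so it passed the filter through the group in which it was high. Over all tested genes the median log2 fold change lay between -0.02 and 0.04 in the 9 comparisons.

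The 4 genes fell into 2 patterns. The MYB gene CSS0032956 was lower under As alone, and its level under Cd overlapped that of CK. The 3 AP2 genes were lower in every treated library than in every CK library, under Cd as under As.

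**Figure D1:**
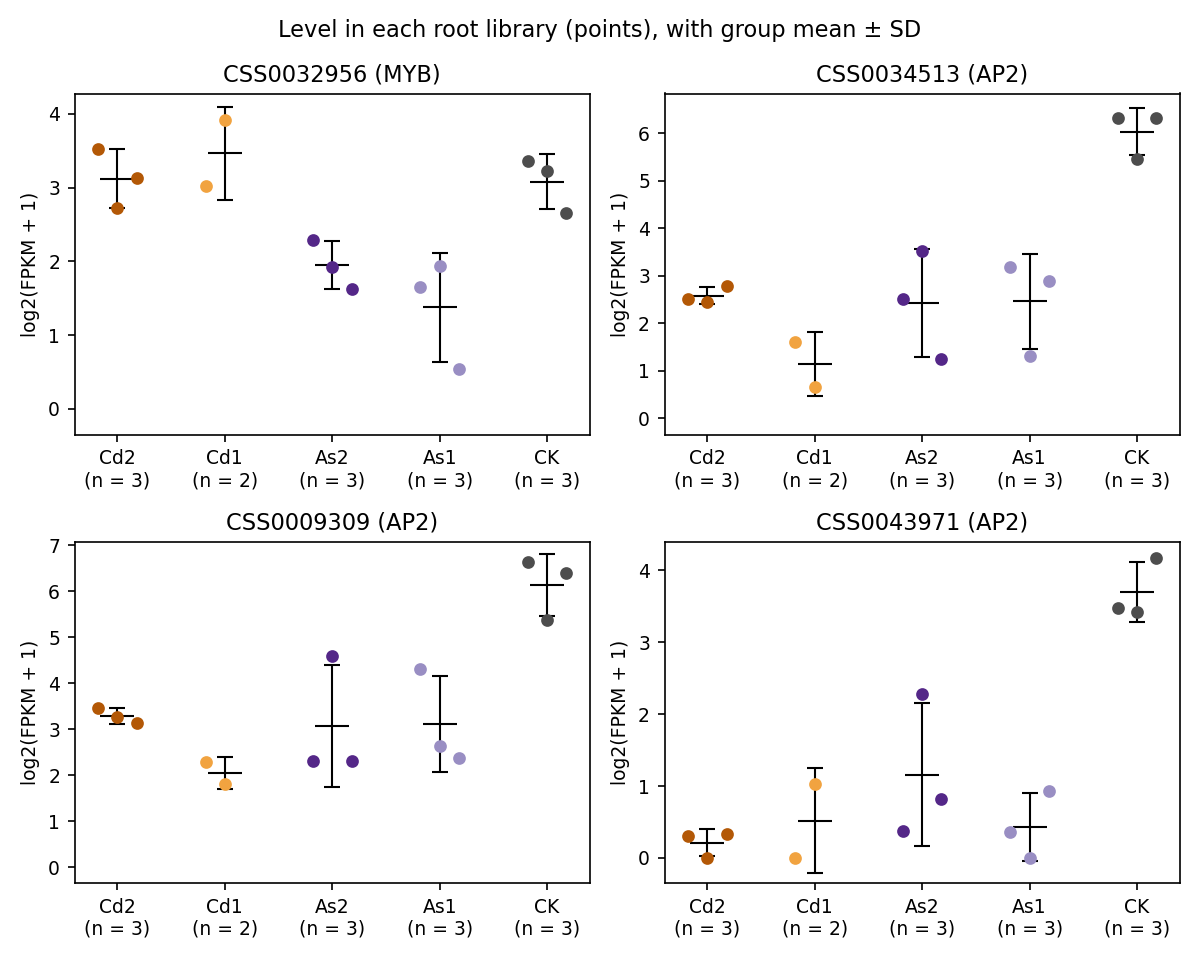
Level of the 4 genes as log2(FPKM + 1) in each library (points) by group, with the group mean and SD (bars). CSS0032956 is low in the 6 As libraries only, whereas the AP2 genes CSS0034513, CSS0009309 and CSS0043971 are low in all 11 treated libraries.

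The FPKM of CSS0032956 was 10.5, 5.59 and 7.76 in the Cd2 libraries and 7.09 and 14.1 in the Cd1 libraries. It was 3.89, 2.81 and 2.10 in the As2 libraries and 2.14, 2.85 and 0.452 in the As1 libraries, against 9.28, 8.38 and 5.31 in the CK libraries. All 6 As libraries lay below all 8 Cd and CK libraries, an arrangement found in 90 of the tested genes (0.272%). Since the gene was chosen for low levels under As, this share only describes it. The highest As library, As2 replicate 1, was at 73.2% of the lowest CK library, CK replicate 3, so the gap between the groups was narrow. The lowest value, in As1 replicate 3, rested on 13 fragments, and the other As libraries had between 51 and 97.

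The group means of CSS0032956 were 7.94 ± 2.44 (SD, n = 3) in Cd2, 10.6 ± 4.94 (n = 2) in Cd1, 2.93 ± 0.90 (n = 3) in As2, 1.81 ± 1.23 (n = 3) in As1 and 7.66 ± 2.08 (n = 3) in CK. Relative to the CK mean this was 104% in Cd2, 138% in Cd1, 38.3% in As2 and 23.7% in As1. In the order of the means, As1 and As2 overlapped, as did CK, Cd2 and Cd1, and the only gap was between As2 and CK.

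The MYB gene CSS0030465, named by the study in the same sentence, was low under both metals. Its mean was 19.4% of the CK mean in Cd2, 20.9% in Cd1, 22.4% in As2 and 38.4% in As1.

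The AP2 gene CSS0034513 had an FPKM of 4.67, 4.47 and 5.85 in Cd2 and of 2.05 and 0.581 in Cd1. It had 4.66, 10.4 and 1.37 in As2 and 8.10, 1.49 and 6.35 in As1, against 79.0, 42.9 and 78.6 in CK. The highest treated library, As2 replicate 2, was at 24.2% of the lowest CK library. The means were 5.0 ± 0.749 (SD, n = 3) in Cd2, 1.31 ± 1.04 (n = 2) in Cd1, 5.47 ± 4.57 (n = 3) in As2, 5.31 ± 3.43 (n = 3) in As1 and 66.8 ± 20.8 (n = 3) in CK. The treated means thus came to between 1.97% (Cd1) and 8.19% (As2) of the CK mean. The libraries of Cd2, As1 and As2 overlapped.

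The AP2 gene CSS0009309 had the highest CK mean of the 4 per unit of length. Its FPKM was 9.996, 8.62 and 7.72 in Cd2 and 3.89 and 2.5 in Cd1. It was 3.95, 23.3 and 3.95 in As2 and 18.8, 5.21 and 4.19 in As1, against 99.3, 40.3 and 83.5 in CK. The treated library nearest to CK was again As2 replicate 2, at 57.7% of CK replicate 2, the lowest CK library, and without it the nearest was As1 replicate 1, at 46.5%. The means were 8.78 ± 1.15 (SD, n = 3) in Cd2, 3.19 ± 0.983 (n = 2) in Cd1, 10.4 ± 11.1 (n = 3) in As2, 9.39 ± 8.13 (n = 3) in As1 and 74.4 ± 30.5 (n = 3) in CK. The SD was above the mean in As2 and close to it in As1, since 1 library of each As group stood above the other 2, whereas the Cd2 libraries lay within 1.29-fold of each other. The Cd1 mean was the lowest of the treated means for this gene too.

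The AP2 gene CSS0043971 was close to the limit of detection in the treated roots. Its FPKM was 0.233, 0 and 0.263 in Cd2 and 0 and 1.04 in Cd1. It was 0.299, 3.83 and 0.767 in As2 and 0.280, 0 and 0.907 in As1, against 10.1, 9.73 and 17.02 in CK. In fragments, the treated libraries held between 0 and 8, except for 26 in As2 replicate 2, and the CK libraries 76, 61 and 123. A count of 0 allows up to 3 fragments, which corresponds to an FPKM of 0.440 in Cd2 replicate 2, 0.376 in Cd1 replicate 1 and 0.430 in As1 replicate 2.

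The group means of CSS0043971 were 0.165 ± 0.144 (SD, n = 3) in Cd2, 0.522 ± 0.738 (n = 2) in Cd1, 1.63 ± 1.92 (n = 3) in As2, 0.396 ± 0.464 (n = 3) in As1 and 12.3 ± 4.10 (n = 3) in CK. From the summed fragments, the level relative to CK was 1.40% in Cd2 (exact 95% interval 0.379% to 3.64%), 4.13% in Cd1 (1.76% to 8.26%), 13.3% in As2 (8.98% to 19.2%) and 3.33% in As1 (1.5% to 6.41%). These intervals cover counting error only, not the spread between libraries. The treated groups overlapped with each other, and no treated library reached the lowest CK library, the nearest being As2 replicate 2 at 39.4% of it.

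The 11 treated libraries were thus all lower than the 3 CK libraries for each of the 3 AP2 genes, which held for 269 of the tested genes (0.812%). With the Cd libraries alone, 2068 tested genes (6.25%) were lower throughout than CK, the 3 AP2 genes among them, and with the As libraries alone 807 (2.44%), all 4 genes among them. The As and CK libraries served to choose the genes, and CSS0043971 passed the filter through CK. These shares therefore only describe the genes. Bulk root RNA does not show whether fewer cells of a type or less RNA per cell accounts for a lower level.

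As2 replicate 2 was the treated library with the highest level of all 3 AP2 genes, whereas CSS0032956 was close to its group mean there. On log2(FPKM + 1) it lay above the As2 mean by 1.09 for CSS0034513, 1.53 for CSS0009309 and 1.12 for CSS0043971, and differed from it by -0.02 for CSS0032956. Its r with the CK mean across the 33109 tested genes, which are not independent, was 0.956, against 0.933 and 0.941 in the other As2 libraries. The highest such r among the treated libraries was 0.957 in Cd2 replicate 3, where the AP2 genes were at 5.85, 7.72 and 0.263 FPKM. The cause of the higher AP2 levels in As2 replicate 2 was not tested. Without As2 replicate 2, the highest treated library was at 18.9% (CSS0034513), 46.5% (CSS0009309) and 10.7% (CSS0043971) of the lowest CK library.

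**Figure D2:**
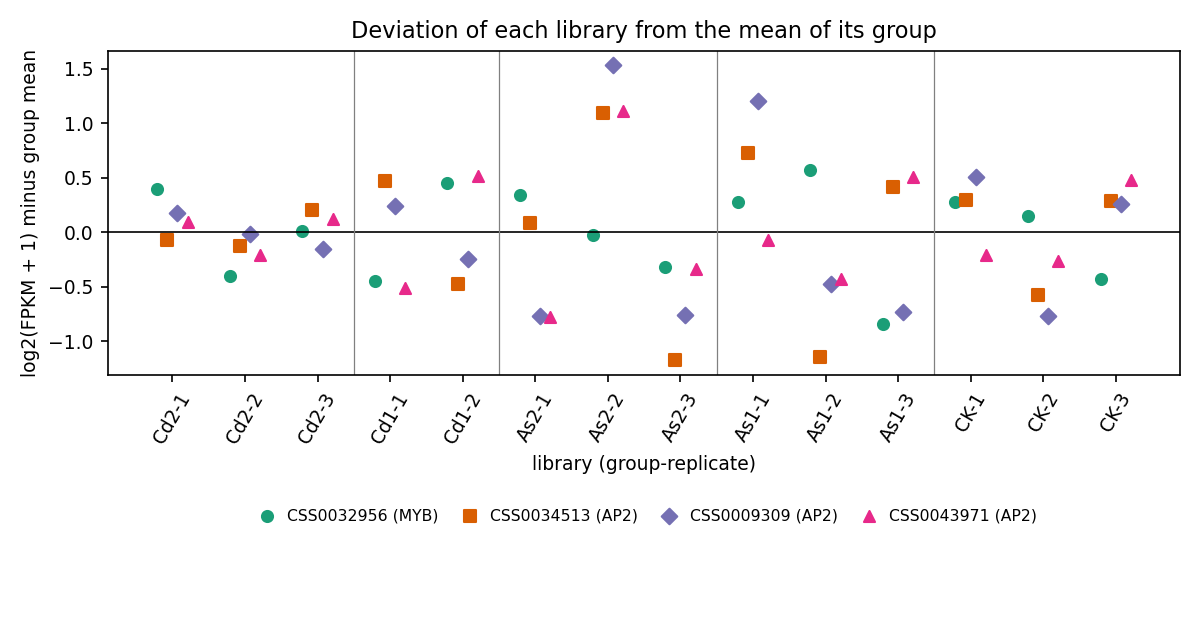
Deviation of each library from the mean of its group, as log2(FPKM + 1), for the 4 genes, with grey lines between groups. The 3 AP2 genes lie 1.09 to 1.53 above the group mean in As2 replicate 2, where CSS0032956 lies at -0.02.

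The comparison with CK asked which genes differed between the roots treated with each metal and the untreated roots. In As1 vs. CK all 4 genes were DEGs and lower, as were 1.28% of all tested genes, and in As2 vs. CK 0 of the 4 were, against 0.00906% of all tested genes. At an unadjusted p under 0.05 and the same limit on the fold change, all 4 passed in As2 vs. CK, as did 2.13% of all tested genes in the lower direction. With limma-voom on the recovered fragments 0 of the 4 passed, against 0.00302%. Since these libraries served to choose the genes, the counts only describe them.

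The log2 fold change of CSS0032956 was -1.13 (SE 0.38) in As2 and -1.71 (SE 0.38) in As1. That of CSS0034513 was -3.61 (SE 0.56) in As2 and -3.57 (SE 0.56) in As1. CSS0009309 had -3.07 (SE 0.61) in As2 and -3.03 (SE 0.61) in As1, and CSS0043971 -2.53 (SE 0.46) in As2 and -3.26 (SE 0.46) in As1. Among the 33109 tested genes ordered from the lowest value, CSS0034513 was in place 5 in As2 and 26 in As1, while CSS0032956 was in place 749 in As2 and 579 in As1.

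The As1 call of CSS0032956 was lost in 9 of the 14 fits that each left out 1 library, namely any Cd2 library, As2 replicate 1, As1 replicate 1 (log2 fold change -1.84), As1 replicate 3 (-1.29) or any CK library. It was also lost with limma-voom, pseudocount 0.1, no filter, quantile normalization, eBayes without trend and only the groups compared. That of CSS0009309 was lost without As1 replicate 2 (-2.80), As1 replicate 3 (-2.67), CK replicate 1 (-2.78) or CK replicate 3 (-2.90). The calls of CSS0034513 and CSS0043971 were kept in all 14. In As2, the 3 AP2 genes became DEGs without As2 replicate 2, with log2 fold changes of -4.16 (CSS0034513), -3.83 (CSS0009309) and -3.09 (CSS0043971), and CSS0034513 did so without As1 replicate 2. Without As2 replicate 2, 92 of 32788 tested genes were called lower in As2 vs. CK, against 3 of 33109 with all libraries. The gain of calls was thus not particular to the AP2 genes. Without As1 replicate 2, 4 of 32878 were called lower.

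In the roots treated with Cd for 10 d, 3 of the 4 genes were lower than in CK. In Cd1 vs. CK, CSS0034513 had a log2 fold change of -4.90 (SE 0.62, adjusted p = 0.0022 from limma-trend), CSS0009309 of -4.09 (SE 0.68, adjusted p = 0.00823) and CSS0043971 of -3.18 (SE 0.51, adjusted p = 0.00707). Called lower were 2.73% of all tested genes. The CK libraries took part in the choice of the genes, and CSS0043971 also passed the filter through them, so these values are not independent of the choice. CSS0032956 was not called, with a log2 fold change of 0.38 and a 95% interval from -0.54 to 1.31 (adjusted p = 0.675). The call of CSS0009309 was lost without Cd1 replicate 1 (adjusted p = 0.0507) or Cd1 replicate 2 (0.0633), each of which left 1 Cd1 library, taken to vary like the other groups, and that of CSS0043971 without Cd1 replicate 1 (0.0791). With limma-voom on recovered fragments CSS0043971 was not called (adjusted p = 0.0545).

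At 15 d, 1 of the 4 genes was a DEG under Cd, against 0.0302% of all tested genes called lower. In Cd2 vs. CK, CSS0043971 had a log2 fold change of -3.48 (SE 0.46, adjusted p = 0.0229 from limma-trend), the third lowest of all tested genes. It had passed the filter through the CK libraries, which also took part in the choice of the gene, so this value is not independent of either. CSS0034513 had -3.45 (SE 0.56, adjusted p = 0.0729) and CSS0009309 -2.86 (SE 0.61, adjusted p = 0.127), so that they missed the threshold although none of their Cd2 libraries overlapped with CK. The log2 fold change of CSS0032956 was 0.04, with a 95% interval from -0.79 to 0.87 (adjusted p = 0.978). The call of CSS0043971 was lost without any one of the Cd2 or CK libraries (adjusted p between 0.0657 and 0.183). It was also lost with limma-voom (0.133), with pseudocounts of 0.1 (0.153) and 0.5 (0.0528) and with the replicate number as a block (0.0698). CSS0034513 was called without As1 replicate 2, As2 replicate 2 or As2 replicate 3 (adjusted p = 0.0469, 0.0221 and 0.0301), and CSS0009309 without As2 replicate 2 (0.0301). Of all tested genes, these 3 fits called 10, 63 and 15 lower in Cd2 vs. CK, in the same order.

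**Figure D3:**
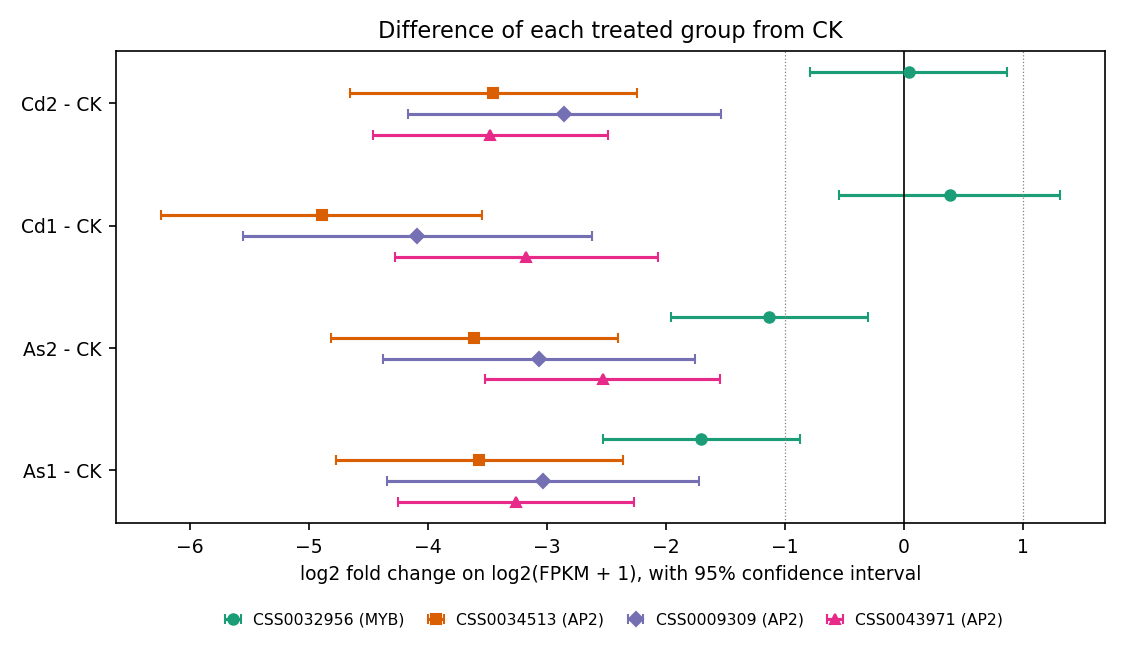
Log2 fold change of the 4 genes against CK on log2(FPKM + 1), with 95% confidence intervals, for Cd2, Cd1, As2 and As1. The dotted lines mark the limit for DEGs of 1 in either direction. The AP2 genes lie between -4.90 and -2.53 in every group, and CSS0032956 lies at 0.04 and 0.38 under Cd and at -1.13 and -1.71 under As.

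The direct comparison of the metals at each time asks whether a gene differs between Cd- and As-treated roots. Its fold changes come from the Cd and As libraries, with the spread shared by all groups, and the As libraries took part in the choice of the genes. A low As level was the reason for the choice, so the values of CSS0032956 are not independent of it. At 10 d, CSS0032956 was higher in Cd1 than in As1, with a log2 fold change of 2.09 (SE 0.43, 95% interval 1.16 to 3.01, adjusted p = 0.0321 from limma-trend), and 0.468% of all tested genes were called higher (1.63% in either direction). Both Cd1 libraries lay above all 3 As1 libraries, and the gene was in place 124 of 33109 from the highest value. The call was lost without Cd1 replicate 2 (1.64, adjusted p = 0.206), As1 replicate 1 (2.22, 0.0577) or As1 replicate 3 (1.67, 0.0864). It was also lost with no filter on low FPKM (0.0506), with the replicate number as a block (0.0528) and with only Cd1 and As1 in the fit (0.176), whereas it was kept with limma-voom on recovered fragments (2.85, 0.0443).

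At 15 d, CSS0032956 again had all 3 Cd2 libraries above all 3 As2 libraries, but the log2 fold change of 1.17 (SE 0.38, 95% interval 0.35 to 2.00) did not pass, with an adjusted p of 0.239 from limma-trend. The same arrangement held for 3211 of the tested genes (9.7%) at 15 d and for 5501 (16.6%) at 10 d. Across both times, all 6 As libraries lay below all 5 Cd libraries for 413 tested genes (1.25%), CSS0032956 among them.

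For the AP2 genes no difference between the metals was detected at this spread. In Cd1 vs. As1 the log2 fold change was -1.33 (95% interval -2.68 to 0.02) for CSS0034513, -1.06 (-2.53 to 0.41) for CSS0009309 and 0.09 (-1.02 to 1.19) for CSS0043971, with adjusted p of 0.279, 0.432 and 0.949 from limma-trend. In Cd2 vs. As2 it was 0.16 (-1.05 to 1.37), 0.21 (-1.10 to 1.53) and -0.94 (-1.93 to 0.05), with adjusted p of 0.945, 0.928 and 0.426. The intervals reach beyond a 2-fold difference in at least 1 direction for each gene, so similar levels under both metals are not shown either. Of the 4 genes, 0 were DEGs in Cd2 vs. As2 with limma-trend and with limma-voom, each of which called 0.00302% of all tested genes. With an unadjusted p under 0.05, 1 (CSS0032956) passed, as did 3.82% of all tested genes.

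The fold changes between 15 d and 10 d under Cd come from the Cd libraries alone, while the spread behind their errors is shared with the As and CK libraries. The study named the 4 genes for low levels under As. It also gave a separate list of MYB genes for Cd, so full independence of the Cd libraries from the choice is not certain. In Cd2 vs. Cd1, CSS0034513 had a log2 fold change of 1.44 (SE 0.62, 95% interval 0.09 to 2.79, adjusted p = 0.303 from limma-trend) and CSS0009309 of 1.24 (SE 0.68, -0.23 to 2.70, adjusted p = 0.44). For both, the Cd2 mean lay above the Cd1 mean, but the change did not pass. CSS0043971 (-0.30, -1.41 to 0.80) and CSS0032956 (-0.34, -1.27 to 0.58) did not pass either. Of the 4 genes, 0 were DEGs with limma-trend, against 1.53% of all tested genes. With an unadjusted p under 0.05, 1 (CSS0034513) passed, against 7.44% of all tested genes, and with limma-voom 0, against 0.861%.

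Under As, the 15 d and 10 d levels of the AP2 genes CSS0034513 and CSS0009309 were nearly equal on average. In As2 vs. As1 their log2 fold changes were -0.04 (95% interval -1.25 to 1.17) and -0.03 (-1.35 to 1.28), beside 0.73 (-0.26 to 1.72) for CSS0043971 and 0.57 (-0.26 to 1.40) for CSS0032956. Of the 4 genes, 0 were DEGs with limma-trend, with an unadjusted p under 0.05 or with limma-voom, whereas 2.1%, 6.63% and 1.59% of all tested genes passed by these criteria in turn. Whether the change with time differs between the metals was tested as an interaction, (Cd2 - Cd1) - (As2 - As1), in which 0 of the 4 genes passed by the same 3 criteria. Of all tested genes, 0.275% were DEGs, 8.12% passed with the unadjusted p and 0.118% with limma-voom. Its log2 values lay between -1.03 (CSS0043971) and 1.48 (CSS0034513), with adjusted p between 0.508 and 0.619 from limma-trend.

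**Figure D4:**
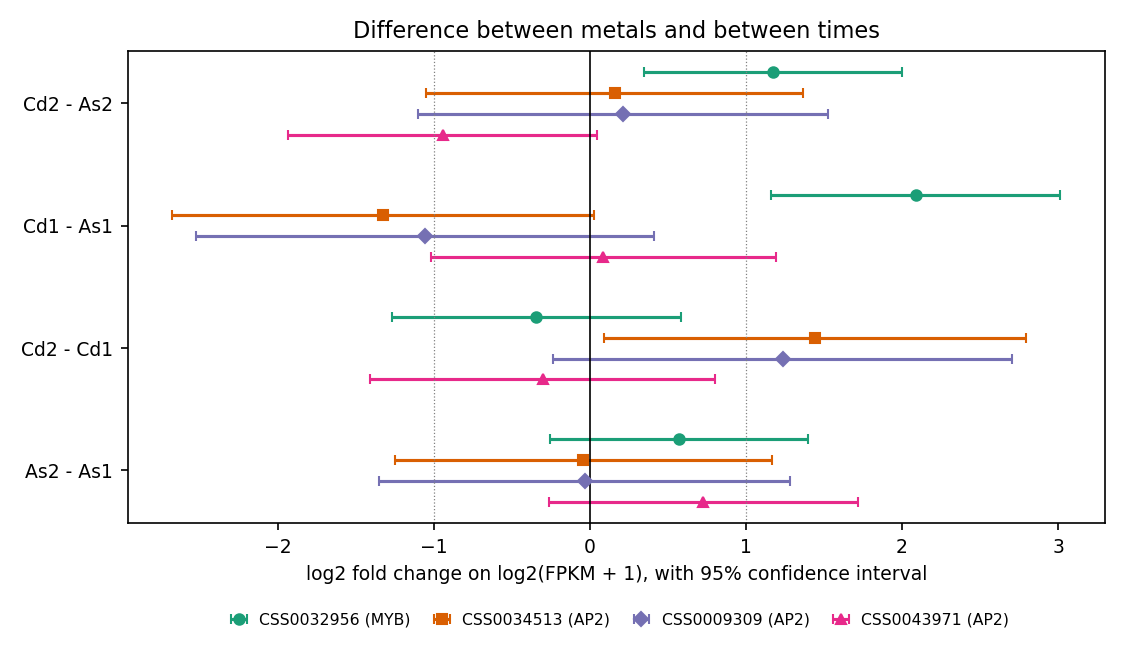
Log2 fold change of the 4 genes between the metals (Cd2 minus As2, Cd1 minus As1) and between the times (Cd2 minus Cd1, As2 minus As1) on log2(FPKM + 1), with 95% confidence intervals. CSS0032956 in Cd1 minus As1, at 2.09, is the one difference that passed the threshold for DEGs.

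Among the AP2 genes, the variation shared within groups was largest for CSS0034513 and CSS0009309. After the group means were removed, the r of these 2 genes over the 14 libraries was 0.724, and it was 0.62 without As2 replicate 2. It was 0.457 for CSS0034513 with CSS0043971 and 0.478 for CSS0009309 with CSS0043971, which became 0.227 and 0.152 without As2 replicate 2. For CSS0032956 with the 3 AP2 genes it lay between -0.263 and 0.101. The points of each gene share their libraries and their depth, and these values are descriptions. How often such an r occurs among pairs of all tested genes was not counted.

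The genes most like each of the 4 were taken by Pearson's r on log2(FPKM + 1) over the 14 libraries, among all tested genes. CSS0034513 and CSS0009309 were among the 3 nearest of each other, with an r of 0.949, which includes the step between CK and the treated groups that chose them. For CSS0034513 the nearest was CSS0028763 (r = 0.953), with a mean FPKM of 3.01 ± 0.916 (SD, n = 3) in Cd2, 1.83 ± 1.36 (n = 2) in Cd1, 3.91 ± 2.26 (n = 3) in As2, 2.45 ± 0.133 (n = 3) in As1 and 18.1 ± 5.79 (n = 3) in CK. A gene outside the reference annotation was among the 3 nearest of both (r = 0.947 with CSS0034513 and 0.931 with CSS0009309). The nearest of CSS0009309 beside these was CSS0041850 (r = 0.932), which was listed at 0 in both Cd1 libraries and had 3.85 ± 0.845 FPKM in CK.

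For CSS0043971 the nearest was CSS0033136 (r = 0.932), which was more abundant, with 15.6 ± 3.15 (SD, n = 3) FPKM in Cd2, 17.1 ± 2.04 (n = 2) in Cd1, 33.4 ± 17.4 (n = 3) in As2, 13.5 ± 4.22 (n = 3) in As1 and 112.5 ± 24.6 (n = 3) in CK. CSS0015391 (r = 0.927) and a gene outside the reference annotation (r = 0.927) followed.

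For CSS0032956 the nearest was CSS0035162 (r = 0.945). Its mean FPKM was 7.99 ± 1.33 (SD, n = 3) in Cd2, 9.69 ± 5.39 (n = 2) in Cd1, 4.02 ± 1.26 (n = 3) in As2, 2.87 ± 0.722 (n = 3) in As1 and 7.27 ± 2.38 (n = 3) in CK. A pattern like that of CSS0032956 follows from taking the gene by its r over the same libraries. CSS0000731 (r = 0.942), with 25.1 ± 11.3 FPKM in Cd2, 16.9 ± 5.41 in Cd1, 9.26 ± 2.45 in As2, 5.95 ± 3.66 in As1 and 19.0 ± 3.79 in CK, and a gene outside the reference annotation (r = 0.935) followed. An r over 0.9 was found with 28 genes for CSS0032956, 9 for CSS0034513, 6 for CSS0009309 and 8 for CSS0043971. By Spearman's rho, 1 of the 3 nearest genes was the same for CSS0034513 and 0 for the other members.

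The study also names 7 other MYB genes and 3 AP2/ERF genes, chosen on the same libraries, the 7 MYB genes for low levels under Cd. One of the 7, CSS0030465 described above, it names for low levels under As as well. Of the 7 MYB genes, 1 was a DEG in Cd2 vs. CK, 3 in Cd1 vs. CK, 1 in As2 vs. CK and 1 in As1 vs. CK, all lower, beside 0.0302%, 2.73%, 0.00906% and 1.28% of all tested genes called lower. The DEG in Cd2, As2 and As1 was CSS0030465 each time, so both As calls come from a gene also named for low As levels. Their median log2 fold changes were -1.70, -1.97, -0.81 and -1.11 in these 4 comparisons, beside medians of -3.15, -3.63, -2.80 and -3.15 for the 4 genes and of 0.01, 0.01, 0.01 and -0.02 for all tested genes. Of the 3 AP2/ERF genes, 1 was a DEG and lower in Cd1 relative to the control. In As1, 1 was a DEG and lower and 1 a DEG and higher, as were 0.338% of all tested genes. Their median log2 fold changes were 1.18 in Cd2, -1.73 in Cd1, 0.78 in As2 and -0.62 in As1. At 15 d, 2 of these AP2/ERF genes lay above 0 under each metal, where CSS0034513, CSS0009309 and CSS0043971 lay below 0. The study named CSS0000647 for a rise at 15 d only, and CSS0018401 and CSS0049619 for a maximum at the earlier time, under both metals. The 4 genes were named for low levels under As. This contrast of signs is therefore not independent of the choice and only describes the genes.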

How the data were processed

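Root RNA of 15 libraries of Camellia sinensis was sequenced. After trimming, the authors aligned reads with HISAT to a C. sinensis genome (version not given in the sources used here), and FPKM per gene was deposited for each library, covering 59128 genes. A deposited gene model file holds no CSS identifier of the 4 genes and was not used. The library deposited under both Cd1 replicate 3 and Cd2 replicate 1 was used once, as Cd2 replicate 1. No further scaling was applied.

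Whole fragments were recovered for 46517 of the 46517 genes above 0 in the 14 libraries, from the steps between the FPKM of each gene. They served for depth and for the limma-voom alternative. In the main fit, limma 3.58.1 (R 4.3.3; eBayes with trend) took all 5 groups in 1 model, so that the 2 libraries of Cd1 share the spread of the others. Fold changes on log2(FPKM + 1) understate those of genes with low FPKM. Fit and recovery were tested on simulated data. Python 3.11.15 (numpy 2.4.6, pandas 2.3.3) served for the rest.

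The nearest genes of each gene were the 3 with the highest Pearson's r. The genes, lists and tests were chosen with earlier results of these data known. Alternatives varied the pseudocount (0.1 and 0.5), the filter, the scaling, the libraries, the model, the replicate block and the threshold.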

Additional observations from a re-analysis of the deposited data

Results flagged for a closer look

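The fold change of the MYB gene CSS0032956 against CK was 0.38 in Cd1 and -1.71 in As1, and the contrast of the 2 groups, a log2 fold change of 2.09, passed the threshold (adjusted p = 0.0321 from limma-trend). Both Cd1 libraries lay above all 3 As1 libraries. The gene was chosen for its low level in the As libraries, so the contrast is not independent of the choice. The adjusted p lay between 0.0268 and 0.206 when 1 library was left out, and the call was lost with no filter (0.0506), with the replicate block (0.0528) and with only the groups compared (0.176).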

How the results depend on the processing

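Under 27 alternative settings, the values of the 4 genes in the 9 comparisons kept their direction and their side of the threshold in 863 of 945 cases, lost the call in 46, gained it in 17 and changed sign in 19. No called value changed sign. A call could be lost only where the main fit had made one, and most gene values were uncalled there. Many of the 863 unchanged cases are therefore uncalled values that stayed uncalled, and the 46 losses should not be read against all 945. Dropping a library that belongs to neither side of a contrast also leaves its fold change as it was. The setting with the identical libraries left out under both labels is the same fit as the one without Cd2 replicate 1, so that fit is counted under 2 names. Leaving out 1 library at a time gave 0 to 3 of the 4 genes as DEGs in Cd2 vs. CK, 1 to 3 in Cd1 vs. CK, 0 to 3 in As2 vs. CK, 2 to 4 in As1 vs. CK (2 without CK replicate 1, CK replicate 3 or As1 replicate 3) and 0 to 1 in Cd1 vs. As1. It gave 0 in the other 4 comparisons.

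With an FDR under 0.01 there were 2 DEGs among the genes in As1 vs. CK and 0 in both Cd2 vs. CK and Cd1 vs. As1. Under an unadjusted p of 0.05 there were 4 in As2 vs. CK, 3 in Cd2 vs. CK, 1 in Cd2 vs. Cd1 and 1 in Cd2 vs. As2. By this criterion 706 of the 33109 tested genes were lower in As2 vs. CK and 1144 in Cd2 vs. CK. In either direction, 2463 passed in Cd2 vs. Cd1 and 1266 in Cd2 vs. As2. An FPKM of at least 1 in every library left only CSS0009309, by construction, with 1 call in As1 vs. CK, 1 in Cd1 vs. CK and 0 in Cd2 vs. CK and Cd1 vs. As1. Of the 21141 genes that this filter left, 231 were called lower in As1 vs. CK and 711 in Cd1 vs. CK. With only the groups compared in the fit 2 genes each were DEGs in Cd2 vs. CK and As1 vs. CK, and 0 in Cd1 vs. As1. Of the 33109 tested genes, 4 were then called lower in Cd2 vs. CK and 167 in As1 vs. CK. In Cd1 vs. As1, 95 were called in either direction. Pseudocounts of 0.1 and 0.5, limma-voom and the identical libraries left out under both labels each gave 0 in Cd2 vs. CK, and no filter gave 0 in Cd1 vs. As1. Of all tested genes, the first 4 settings called 5, 5, 4 and 0 lower in Cd2 vs. CK. With no filter, 378 of 46517 genes were called in Cd1 vs. As1. The cause was not tested.

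The sign changes concerned values near 0. CSS0032956 in Cd2 vs. CK was -0.16 with the identical libraries left out. CSS0043971 in Cd1 vs. As1 was -0.026 with quantile normalization and -0.19 with limma-voom. Leaving out 1 library gave -0.066 to 0.83 for CSS0032956 in Cd1 vs. CK, -0.17 to 0.24 in Cd2 vs. CK and -0.79 to 0.11 in Cd2 vs. Cd1. In As2 vs. As1 it gave -0.61 to 0.54 for CSS0034513 and -0.80 to 0.57 for CSS0009309, and in Cd2 vs. As2 -0.43 to 0.71 and -0.17 to 0.98. For CSS0043971 it gave -0.82 to 0.21 in Cd2 vs. Cd1 and -0.43 to 0.60 in Cd1 vs. As1.

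No pairing of the libraries by the replicate numbers of the labels was seen. Of the pairs from different groups, 4 of 26 same-numbered and 13 of 52 different-numbered had an r of their deviations over 0.1. The median r was 0.009 and 0.016. With 2 or 3 libraries per group, this cannot exclude pairing. With the replicate number as a block, 0 of the genes were DEGs in Cd2 vs. CK (CSS0043971, adjusted p = 0.0698) and 0 in Cd1 vs. As1 (CSS0032956, 1.89, 0.0528), and it changed no other call of the 4 genes. Over all tested genes the DEG counts moved with single libraries, between 0 and 76 in Cd2 vs. CK (11 with all libraries), 257 and 1577 in Cd1 vs. CK (1053), 0 and 111 in As2 vs. CK (5), 103 and 640 in As1 vs. CK (535) and 101 and 883 in Cd1 vs. As1 (539). The highest count in each of these comparisons came from the fit without As2 replicate 2. The level of CSS0043971 in treated roots is limited by depth, with a few fragments per library.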
